A study of Mus musculus with 15 samples.

Results

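The sinusoidal endothelium of the liver and its Wnt and BMP signals were followed through 10 genes of 25731 counted, named as endothelial markers and endothelial ligands by a rule that uses no measured value, though with earlier results of these data known. All 10 passed the filter on low counts, so no member was lost. Bulk RNA sequencing had been done on 15 mouse livers of the C57BL/6 genotype, 5 per diet: a ketogenic diet (KD), a high-fat diet (HFD) and a chow diet (CD). The labels give 3 days of feeding for KD, HFD and CD alike. They give an age of 12 weeks for KD and HFD mice and no age for CD mice. Sex and diet composition are likewise not in the labels used here. Each library was taken as 1 mouse, which the labels do not state, so p-values measure the spread between these samples.

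Sinusoidal endothelial cells line the liver's capillaries, have open pores and no tight basement membrane, and clear macromolecules from blood through scavenger receptors and lectins. Those near the central vein release Wnt ligands and an R-spondin, which keep beta-catenin signalling active in neighbouring hepatocytes and so set the pericentral gene programme. The same endothelium releases BMP2 and BMP6, which drive hepatocyte SMAD signalling and the iron hormone hepcidin. In bulk tissue, fewer cells of a type and less RNA per cell cannot be told apart, and this holds for each result below.

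Summed estimated counts were 34707597 to 50914494 in KD libraries, 30121672 to 44764257 in HFD libraries and 30190806 to 43688344 in CD libraries, and 13967 genes were tested. Levels are given as CPM, the counts scaled to library size with TMM factors. In KD against CD livers 30.8% of all genes passed an adjusted p of 0.05, with 16.2% higher and 14.6% lower, and in HFD against CD livers 15.6% passed, with 8.3% higher and 7.32% lower. In KD against HFD livers 26.1% passed, with 13.1% higher and 13% lower. With scaling by total count alone, 68.5% of the calls in KD against CD livers were higher, where TMM scaling gave 52.6% of the calls. These shares are the background for the members' counts and for the counts of every gene list below.

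Levels per length were compared in TPM, which scales each library and each transcript's length, over all 15 libraries. The diets were pooled here, so each SD holds differences between diets as well as between livers of a diet. Clec4g, for instance, averaged 33.0 TPM in KD livers, 23.8 TPM in HFD livers and 23.0 TPM in CD livers. Clec4g, a C-type lectin of sinusoidal endothelium, averaged 26.6 ± 6.99 TPM (SD, n = 15), and Stab1, a scavenger receptor, 17.9 ± 2.96 TPM. Stab2, the hyaluronan scavenger receptor, averaged 6.58 ± 2.15 TPM, Oit3, a secreted zona pellucida domain protein, 5.94 ± 2.12 TPM, and Lyve1, a hyaluronan receptor, 2.90 ± 1.11 TPM. Every ligand except Bmp2 had a mean below those of these markers. Bmp2 averaged 3.80 ± 1.23 TPM, and Rspo3, the R-spondin that amplifies Wnt signals, 1.95 ± 0.616 TPM. Bmp6 averaged 1.21 ± 0.323 TPM, Wnt2 0.795 ± 0.321 TPM and Wnt9b 0.212 ± 0.0710 TPM. Of the 9 neighbouring pairs in this order, the ranges overlapped in all but Stab1 and Stab2. Within single libraries, Stab1 exceeded Stab2, Oit3 exceeded Bmp2, Rspo3 exceeded Bmp6 and Wnt2 exceeded Wnt9b in 15 of 15. The order of Bmp2 over Lyve1 held in 12 of 15 libraries, and that of the other 4 neighbouring pairs in 14 of 15. Wnt9b rested on 17 to 49 reads per library and Wnt2 on 27 to 95, the thinnest of the 10, while Stab2 had 604 to 1432 reads.

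**Figure D1:**
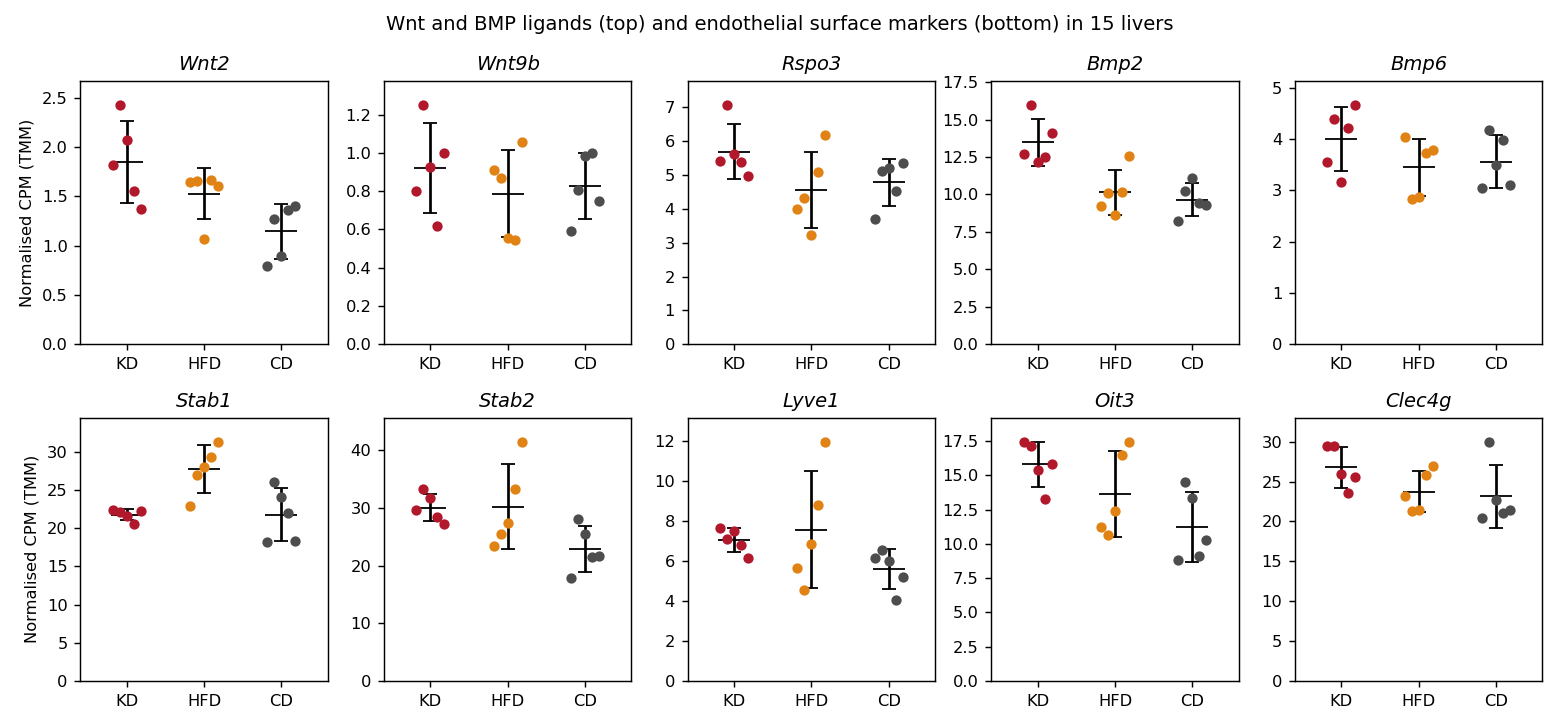
Normalised CPM (y axis, from 0) of the 10 genes in every KD, HFD and CD library (x axis, points), with the mean and SD of 5 libraries as bar and whiskers. KD points for Bmp2 (12.2 to 16.0 CPM) all lie above the CD points (8.20 to 11.1 CPM), and 4 of the 5 HFD points for Stab1 lie above every KD and CD point.

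In KD against CD livers, 3 of the 10 genes rose, none fell and 7 did not pass, against 30.8% of all genes tested. The genes that rose were Bmp2, Wnt2 and Oit3. The median log2 fold change of the 10 was 0.29, beside -0.01 for all genes, and 9 of the 10 had a positive sign, beside 48.4% of all genes. In CPM the diets' libraries did not overlap for 1 member (Bmp2), beside 22.3% of all genes. In TPM, KD livers also lay above CD livers without overlap for Wnt2, Rspo3, Stab2, Lyve1 and Oit3. The share of all genes without overlap in TPM was not computed.

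Bmp2 encodes a secreted BMP ligand that endothelial cells supply to hepatocytes, and it lies on chromosome 2 from 133552159 to 133562885, on the plus strand of build GRCm38 (GENCODE M21). It had 12.7, 16.0, 12.2, 12.5 and 14.1 CPM in KD livers, against 8.20, 10.2, 11.1, 9.43 and 9.31 CPM in CD livers. The lowest KD liver stood above the highest CD liver. Bmp2 rose 1.39-fold, a log2 fold change of 0.48 ± 0.10 (SE; edgeR quasi-likelihood test, adjusted p = 0.00171), and it passed in each of 18 alternative fits (adjusted p between 1.37e-04 and 0.00667).

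Wnt2, a Wnt ligand of pericentral sinusoidal endothelium, lies on chromosome 6 from 17988940 to 18030585 on the minus strand. Its levels in KD livers were 1.82, 2.42, 2.07, 1.55 and 1.37 CPM, against 0.796, 1.27, 0.895, 1.36 and 1.40 CPM in CD livers. KD replicate 8 lay just below CD replicate 19, so the groups overlapped by 1 KD liver. Wnt2 rose 1.61-fold, with a log2 fold change of 0.69 ± 0.20 (adjusted p = 0.0127, edgeR), between 0.00482 and 0.0443 over 18 alternatives. Wnt9b, a ligand made by the endothelium of the central vein (chromosome 11, 103727364 to 103749821, minus strand), had 0.919 ± 0.236 CPM in KD livers and 0.826 ± 0.171 CPM in CD livers (SD, n = 5 each). Its log2 fold change of 0.14 had a 95% interval of -0.35 to 0.63, and it did not pass (adjusted p = 0.689, edgeR).

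The upstream sequences of both Wnt genes and both stabilins are shown because within each pair 1 gene passed a test in some comparison and the other did not. Stab2 only just missed in KD against CD livers (adjusted p = 0.0543, edgeR) and passed in 5 of 18 alternative fits. The genes of a pair were not tested against each other. They come from the RefSeq promoter windows of GRCm38.p6, which held 6 of the 10 genes, and are restricted to bases upstream of both the RefSeq and the GENCODE start. Each is on the minus strand, read 5′ to 3′ towards the gene. Capitals mark matches, on either strand, to GATAA (GATA factors), TGCTGA (a MAF half-site) and AGGAAG (an ETS core).
Wnt2, chr6:18030586-18030695: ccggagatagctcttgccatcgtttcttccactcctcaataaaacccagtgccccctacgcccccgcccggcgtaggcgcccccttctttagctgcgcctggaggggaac
Wnt9b, chr11:103749822-103750071: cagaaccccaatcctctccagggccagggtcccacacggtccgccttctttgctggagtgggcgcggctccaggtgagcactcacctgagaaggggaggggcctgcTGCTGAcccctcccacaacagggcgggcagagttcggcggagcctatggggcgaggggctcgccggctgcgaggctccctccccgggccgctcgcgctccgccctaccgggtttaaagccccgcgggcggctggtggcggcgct
Stab1, chr14:31168642-31168891: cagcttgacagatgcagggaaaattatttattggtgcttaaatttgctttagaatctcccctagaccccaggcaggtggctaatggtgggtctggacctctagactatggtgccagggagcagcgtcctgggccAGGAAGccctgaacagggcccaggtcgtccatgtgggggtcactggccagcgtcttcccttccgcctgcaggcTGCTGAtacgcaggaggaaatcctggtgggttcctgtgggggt
Stab2, chr10:87008026-87008192: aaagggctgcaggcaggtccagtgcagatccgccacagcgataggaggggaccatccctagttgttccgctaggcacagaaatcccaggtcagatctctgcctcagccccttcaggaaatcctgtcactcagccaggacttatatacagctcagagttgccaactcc
The TGCTGA match in Stab1 lies 43 to 38 bases before the start and the AGGAAG match 116 to 111 bases before it, while the TGCTGA match in Wnt9b lies 144 to 139 bases before its start. Of 32851 RefSeq windows of 250 bases, 16.1% held TGCTGA, 29.5% held AGGAAG and 22.6% held GATAA. The printed Wnt2 and Stab2 stretches hold none of the 3 motifs. They are shorter. Of windows cut to the 110 bases of Wnt2, 7.16% held the MAF half-site, 13.2% the ETS core and 12% the GATA motif. Of windows cut to the 167 bases of Stab2, 10.8% held the MAF half-site, 20.1% the ETS core and 17% the GATA motif. None of the matches overlap.

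Among the other ligands, Rspo3 (chromosome 10, 29452416 to 29535867, minus strand) had 4.98 to 7.07 CPM in KD livers and 3.69 to 5.35 CPM in CD livers. Its log2 fold change of 0.25 (95% interval -0.06 to 0.56) did not pass (adjusted p = 0.222, edgeR). Bmp6, the other BMP ligand of this endothelium (chromosome 13, 38345107 to 38500302, plus strand), had 3.16 to 4.66 CPM in KD livers and 3.04 to 4.18 CPM in CD livers. It too did not pass, at a log2 fold change of 0.16 (95% interval -0.12 to 0.45). Of the 5 ligands 2 rose, beside 16.2% of all genes, and 3 did not pass. All 5 had a positive sign, beside 48.4% of all genes, with a median of 0.25. The ligands varied together from liver to liver, so their signs are not independent.

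Oit3, which marks sinusoidal endothelium (chromosome 10, 59422958 to 59441778, minus strand), had 17.4, 17.1, 15.4, 13.3 and 15.8 CPM in KD livers, against 8.85, 14.5, 13.3, 9.13 and 10.3 CPM in CD livers. CD replicates 16 and 17 reached the range of the lowest KD livers. Oit3 rose 1.41-fold (log2 fold change 0.49 ± 0.16, adjusted p = 0.0295, edgeR), a call lost without KD replicate 2, 3 or 8 or CD replicate 15, 18 or 19 (adjusted p up to 0.0730). Stab2 (chromosome 10, 86841198 to 87008025, minus strand) had 29.7, 33.2, 31.8, 28.4 and 27.3 CPM in KD livers, against 17.8, 28.1, 25.4, 21.5 and 21.7 CPM in CD livers. Only CD replicate 16 reached the KD range. Its log2 fold change of 0.39 ± 0.15 just missed the threshold (adjusted p = 0.0543, edgeR), and it passed in 5 of 18 alternatives, with adjusted p from 8.79e-04 to 0.125 over all of them.

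Lyve1 (chromosome 7, 110850607 to 110863239, minus strand) had 6.15 to 7.65 CPM in KD livers and 4.04 to 6.58 CPM in CD livers, and did not pass (log2 fold change 0.33, 95% interval -0.11 to 0.77). Clec4g (chromosome 8, 3707064 to 3720651, minus strand) had 23.6 to 29.4 CPM in KD livers and 20.5 to 30.0 CPM in CD livers (log2 fold change 0.21, 95% interval -0.0035 to 0.42). It passed without CD replicate 16, its highest CD liver. Stab1, by contrast, averaged 21.7 ± 0.734 CPM in KD livers and 21.7 ± 3.46 CPM in CD livers, with a 95% interval of -0.20 to 0.20 on the log2 scale. An offset for transcript length moved its log2 fold change to -0.27, outside that interval, and it still did not pass (adjusted p = 0.137, edgeR).

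**Figure D2:**
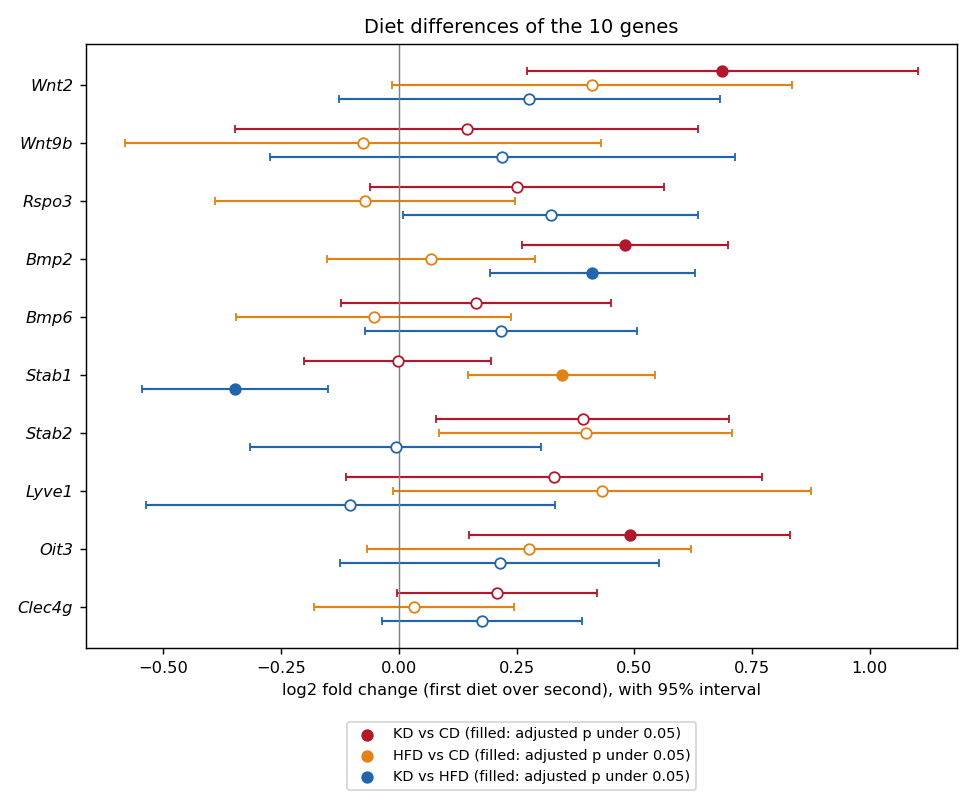
Log2 fold change (x axis) of each gene (y axis) for KD over CD, HFD over CD and KD over HFD, with 95% intervals; filled points passed an adjusted p of 0.05. Bmp2 and Stab1 are the members with filled points in KD over HFD, on opposite sides of 0.

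In HFD against CD livers, Stab1 rose, none fell and 9 did not pass, beside 15.6% of all genes (8.3% higher, 7.32% lower). By unadjusted p, 2 of the 10 were under 0.05, beside 30.3% of all genes. The median log2 fold change of the 10 was 0.17, beside 0.01 for all genes, and 7 of 10 were positive, beside 52.6% of all genes. For none of the 10 did HFD and CD libraries stay apart, beside 10.3% of all genes.

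Stab1 (chromosome 14, 31139013 to 31168641, minus strand) encodes stabilin-1, a scavenger receptor also found on tissue macrophages. It had 22.9, 27.0, 27.9, 29.3 and 31.3 CPM in HFD livers, against 18.2, 26.1, 24.0, 22.04 and 18.3 CPM in CD livers. HFD replicate 9 lay within the CD range, and the other 4 HFD livers lay above all CD livers. Stab1 rose 1.27-fold (log2 fold change 0.35 ± 0.095, adjusted p = 0.0188, edgeR). That call was lost without HFD replicate 14 or CD replicate 15, with total-count scaling, with the 2 diets fitted alone and with an offset for transcript length (log2 fold change 0.19, adjusted p = 0.391, edgeR). Of 11 markers of Kupffer cells, the liver's macrophages, none passed in the same comparison, beside 15.6% of all genes. All 11 had a negative sign, where 52.6% of all genes had a positive one, and the list median was -0.29. The part of these cells in the Stab1 result was not tested.

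Stab2 averaged 30.2 ± 7.31 CPM in HFD livers and 22.9 ± 3.94 CPM in CD livers (SD, n = 5 each), and its log2 fold change of 0.40 did not pass (adjusted p = 0.0792, edgeR). HFD replicate 14 alone had 41.5 CPM, and the other 4 HFD livers had 23.4 to 33.3 CPM. That liver was also the highest of its diet for Stab1 (31.3 CPM), Lyve1 (12.0 CPM), Oit3 (17.5 CPM) and Clec4g (26.9 CPM). For Bmp2 (12.6 CPM), Rspo3 (6.17 CPM) and Wnt9b (1.06 CPM) it was likewise the highest, but not for Bmp6 or Wnt2. It had as well the highest mean log2 CPM of general endothelial genes of all 15 libraries, 2.85, beside 2.31 to 2.74 in the other 14. Among ligands, Wnt2 had 1.65, 1.65, 1.06, 1.67 and 1.604 CPM in HFD livers, against the CD values of 0.796 to 1.40 CPM. The log2 fold change of Wnt2 was 0.41 (95% interval -0.01 to 0.84) and did not pass (adjusted p = 0.181, edgeR). Bmp2 averaged 10.1 ± 1.49 CPM in HFD livers and 9.65 ± 1.08 CPM in CD livers, a log2 fold change of 0.07 (adjusted p = 0.712, edgeR). Lyve1 had 4.57 to 12.0 CPM in HFD livers and 4.04 to 6.58 CPM in CD livers, and its log2 fold change of 0.43 did not pass (adjusted p = 0.176, edgeR). Oit3 averaged 13.6 ± 3.12 CPM in HFD livers and 11.2 ± 2.55 CPM in CD livers, and its log2 fold change of 0.28 missed the threshold (adjusted p = 0.267, edgeR). Wnt9b, Rspo3, Bmp6 and Clec4g had log2 fold changes between -0.08 and 0.03.

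In KD against HFD livers, Bmp2 rose, Stab1 fell and 8 did not pass, beside 13.1% of all genes higher and 13% lower. Both comparisons with chow share the CD livers, so KD against HFD was tested directly. Bmp2 had 12.2 to 16.0 CPM in KD livers and 8.66 to 12.6 CPM in HFD livers, where only HFD replicate 14 reached the KD range. Its log2 fold change was 0.41 ± 0.10 (adjusted p = 0.00732, edgeR), and the highest adjusted p over 18 alternatives was 0.0252. Stab1 had 22.3, 22.1, 21.5, 20.6 and 22.3 CPM in KD livers, against 22.9 to 31.3 CPM in HFD livers, with no overlap, where 17% of all genes had none. The log2 fold change of Stab1 was -0.35 ± 0.094 (adjusted p = 0.0111, edgeR), and total-count scaling ended the call (adjusted p = 0.0898). Of the 11 Kupffer cell markers 3 rose in KD against HFD livers (Vsig4, C1qb and Cd5l), with a list median of 0.29, and their part in the Stab1 result was not tested. The other stabilin, Stab2, did not pass, and averaged 30.1 ± 2.42 CPM in KD livers and 30.2 ± 7.31 CPM in HFD livers, with a 95% interval of -0.32 to 0.30 for the log2 fold change. Wnt2 (log2 fold change 0.28), Rspo3 (0.32), Bmp6 (0.22), Wnt9b (0.22), Oit3 (0.21), Clec4g (0.18) and Lyve1 (-0.10) did not pass. Rspo3 passed without HFD replicate 14, its highest HFD liver.

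The members were next set against the mean log2 CPM of 18 endothelial genes expressed in vessels of any kind, which include Pecam1, Cdh5 and Tie1. Values here are differences of log2 CPM, given as a description. On this scale the diets did not overlap for 3 of the 10 members in KD against CD, beside 11.2% of all genes, for 2 in HFD against CD, beside 3.06%, and for 2 in KD against HFD, beside 8.18%. Genes of other cells take on the variation of the endothelial mean on this scale, so these shares are not a like background for endothelial genes. Bmp2 lay 1.05 to 1.46 above that mean in KD livers, 0.70 to 0.92 above it in HFD livers and 0.63 to 0.84 above it in CD livers, so that KD did not overlap either diet. Stab1 lay 1.86 to 1.99 above it in KD livers, 2.12 to 2.38 above it in HFD livers and 1.71 to 2.03 above it in CD livers, and HFD did not overlap either diet. Stab2 lay 2.16 to 2.55 above it in KD livers and 2.16 to 2.52 in HFD livers, against 1.85 to 2.08 in CD livers, so that neither KD nor HFD overlapped CD. Oit3 lay 1.30 to 1.56 above it in KD livers and 0.77 to 1.13 above it in CD livers, again without overlap. Wnt2 lay below that mean, between -2.11 and -1.24 in KD livers and between -2.72 and -1.94 in CD livers, and these overlapped. With that mean as a covariate in the fit, an alternative chosen after the data were seen, 5 members passed in KD against CD (Bmp2, Wnt2, Oit3, Stab2 and Clec4g), beside 32% of all genes in that fit. In the same fit 3 passed in HFD against CD (Stab1, Stab2 and Oit3), beside 16.7% of all genes, and 3 in KD against HFD (Bmp2, Stab1 and Rspo3), beside 27%. The covariate can take up more of the spread of endothelial genes than of others, so these shares too are not a like background.

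**Figure D3:**
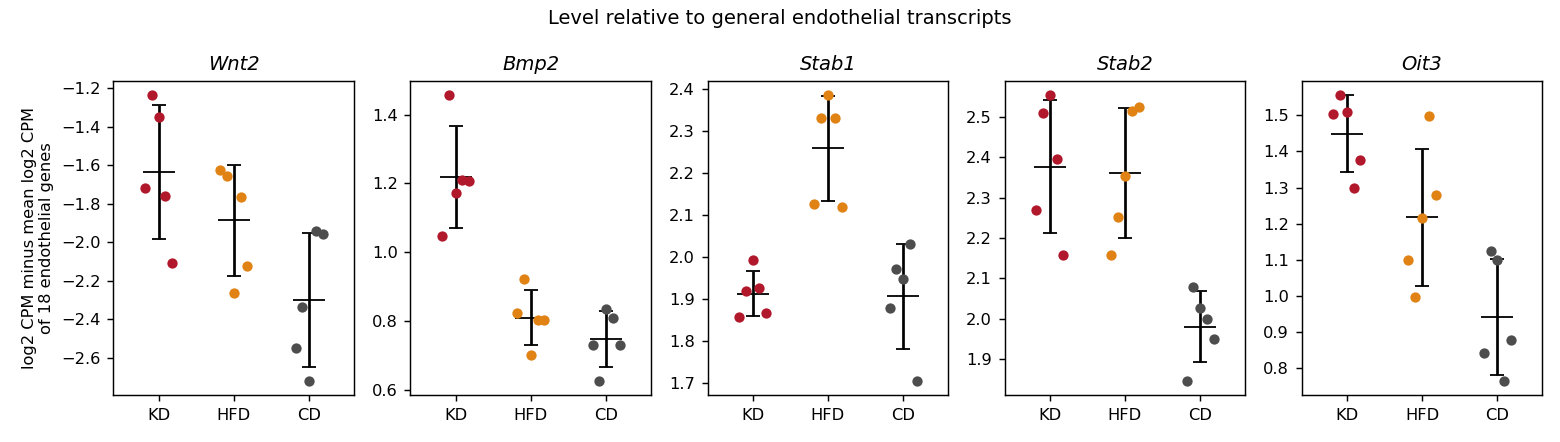
Log2 CPM of 5 genes minus the mean log2 CPM of 18 general endothelial genes in the same library (y axis), for KD, HFD and CD livers (x axis; points are libraries, bars and whiskers mean and SD). Stab2 lies higher in KD and in HFD livers than in CD livers without overlap, and Stab1 lies higher in HFD livers than in the other diets.

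Of the 18 general endothelial genes, in KD livers 2 fell against CD (Egfl7 and Sox18), none rose and 16 did not pass, with a median log2 fold change of 0.03. Of all genes 30.8% passed there. In HFD livers none passed against CD, beside 15.6% of all genes, with a median of -0.02. Egfl7, a secreted endothelial matrix protein, had a log2 fold change of -0.51 ± 0.14 (adjusted p = 0.0104, edgeR), and Sox18, an endothelial transcription factor, one of -0.44 ± 0.14 (adjusted p = 0.0188). KD against HFD livers had 1 rise (Icam2) and 1 fall (Egfl7), where 26.1% of all genes passed. Of 14 other genes enriched in sinusoidal endothelium, 3 rose in KD against CD livers, beside 16.2% of all genes, and 11 did not pass. Their median was 0.22. In HFD against CD livers none passed, beside 15.6% of all genes, with a median of 0.05. F8, coagulation factor VIII, which the liver's endothelium makes, averaged 15.9 CPM in KD livers and 10.4 CPM in CD livers (log2 fold change 0.62 ± 0.12, adjusted p = 6.35e-04, edgeR). Maf, a transcription factor of sinusoidal identity, had a log2 fold change of 0.35 ± 0.10 (adjusted p = 0.0156, edgeR), and the fatty acid receptor Cd36, which hepatocytes also express, one of 1.73 ± 0.31 (adjusted p = 0.00104). Of the 14, 2 rose in KD against HFD livers, 1 fell and 11 did not pass, beside 26.1% of all genes that passed, with a median of 0.16. Cd36 and Maf rose (log2 fold changes 1.72 ± 0.31 and 0.37 ± 0.10, adjusted p = 0.00167 and 0.0146, edgeR). Gata4, a regulator of sinusoidal identity that other liver cells also express, fell (log2 fold change -0.58 ± 0.18, adjusted p = 0.0294, edgeR).

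Genes listed for larger vessels were looked at next, though the list also holds a capillary gene, Plvap, so it does not single out the endothelium of those vessels. Of 14, 12 were tested, and 3 rose in KD against CD livers (Gja4, Plvap and Thbd), beside 16.2% of all genes, with a median of 0.18. The gap junction gene Gja4 averaged 2.06 CPM in KD livers and 1.11 CPM in CD livers (log2 fold change 0.88 ± 0.19, adjusted p = 0.00141, edgeR), and Plvap, a protein of capillary diaphragms, 17.8 CPM in KD livers and 14.5 CPM in CD livers (0.29 ± 0.085, adjusted p = 0.0132). Thbd, the thrombin receptor thrombomodulin, had a log2 fold change of 0.55 ± 0.18 (adjusted p = 0.0310, edgeR). In HFD against CD livers the ephrin gene Efnb2 rose (0.67 ± 0.19, adjusted p = 0.0224, edgeR) and 11 did not pass, beside 15.6% of all genes that passed. KD against HFD livers had 2 rises (Gja4 and Ly6a) and 2 falls (Sox17 and Selp), beside 13.1% of all genes higher and 13% lower. The summed level of the 14 genes was 41.1 to 52.7 CPM in KD livers, 32.6 to 49.8 CPM in HFD livers and 33.8 to 43.7 CPM in CD livers. Lymphatic markers, which matter for Lyve1 since lymphatic vessels also express it, summed to 1.06 to 2.73 CPM in KD livers, 0.624 to 1.68 CPM in HFD livers and 0.973 to 4.33 CPM in CD livers, and none of 3 passed in any comparison.

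The remaining Wnt, R-spondin and BMP ligands were mostly below the filter: of 28, 10 were tested, and 4 had no read in any library. In KD against CD livers 3 rose (Bmp10, Wnt5b and Gdf2), 1 fell (Bmp4) and 6 did not pass, beside 16.2% of all genes higher and 14.6% lower. Bmp10, which with BMP9 activates the endothelial receptor ALK1, averaged 4.52 ± 0.732 CPM in KD livers and 2.73 ± 0.553 CPM in CD livers (log2 fold change 0.72 ± 0.14, adjusted p = 7.29e-04, edgeR). Gdf2, the gene of BMP9, averaged 13.6 ± 1.16 CPM in KD livers and 10.7 ± 1.14 CPM in CD livers (0.34 ± 0.088, adjusted p = 0.00614, edgeR). Wnt5b, a ligand of mainly beta-catenin-independent signalling, had a log2 fold change of 0.61 ± 0.15 (adjusted p = 0.00369, edgeR). KD against HFD livers had 4 rises (Bmp10, Gdf2, Wnt5b and Bmp5) and 1 fall (Bmp7), beside 13.1% of all genes higher and 13% lower, and 5 did not pass. There Bmp10 and Gdf2 rose by 0.79 and 0.34 on the log2 scale (adjusted p = 5.56e-04 and 0.00751, edgeR). In HFD against CD livers Bmp7 rose (0.52 ± 0.17, adjusted p = 0.0484, edgeR) and 9 did not pass, beside 15.6% of all genes that passed.

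On the receiving side of the Wnt signal, 38 of 45 genes of Wnt secretion, receptors, intracellular relay and inhibitors were tested. In KD against CD livers 8 rose, 6 fell and 24 did not pass, with a median of 0.04, beside 16.2% of all genes higher and 14.6% lower. The receptor Fzd1 and the co-receptor Lrp5 rose (log2 fold changes 0.55 ± 0.096 and 0.44 ± 0.090, adjusted p = 2.64e-04 and 0.00104, edgeR), and the relay gene Dvl1 fell (-0.32 ± 0.057, adjusted p = 3.39e-04). HFD against CD livers had 4 rises (Fzd1, Bcl9l, Fzd4 and Fzd8) and no fall, beside 8.3% of all genes higher and 7.32% lower. KD against HFD livers had 3 rises and 8 falls, beside 13.1% of all genes higher and 13% lower. The smallest adjusted p there belonged to 2 falls, Fzd8 and Pygo2 (-0.79 ± 0.16 and -0.33 ± 0.068, adjusted p = 0.00144 and 0.00148, edgeR), and 1 rise, Notum (0.49 ± 0.11, adjusted p = 0.00300). Of 22 genes that need Wnt signalling in hepatocytes or mark the cells around the central vein, 9 rose, 4 fell and 9 did not pass in KD against CD livers, with a median of 0.33. Of all genes 16.2% rose and 14.6% fell there. Lect2, Cyp2e1 and Aldh3a2 had the smallest adjusted p, with log2 fold changes of 1.06, 1.06 and 1.24. The others that rose were Slc1a2, Glul, Oat, Slc13a3, Rhbg and Notum. The 4 that fell were Cyp27a1, Cyp1a2, Tnfrsf19 and Slc1a4. HFD against CD livers had 5 rises and 2 falls (Tnfrsf19 and Cyp1a2), beside 8.3% of all genes higher and 7.32% lower. KD against HFD livers had 9 rises and 2 falls (Cyp27a1 and Gulo), beside 13.1% of all genes higher and 13% lower. The median was 0.19 in each. Axin2 and Lgr5, direct beta-catenin targets named here after their values were seen, were among the 9 that did not pass in KD against CD livers (log2 fold changes 0.24 and 0.33, adjusted p = 0.294 and 0.320, edgeR). Glul, Rhbg and Notum, of the same list and also named after their values were seen, rose there (0.62, 0.86 and 0.37, adjusted p = 5.00e-06, 0.00126 and 0.0134, edgeR).

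**Figure D4:**
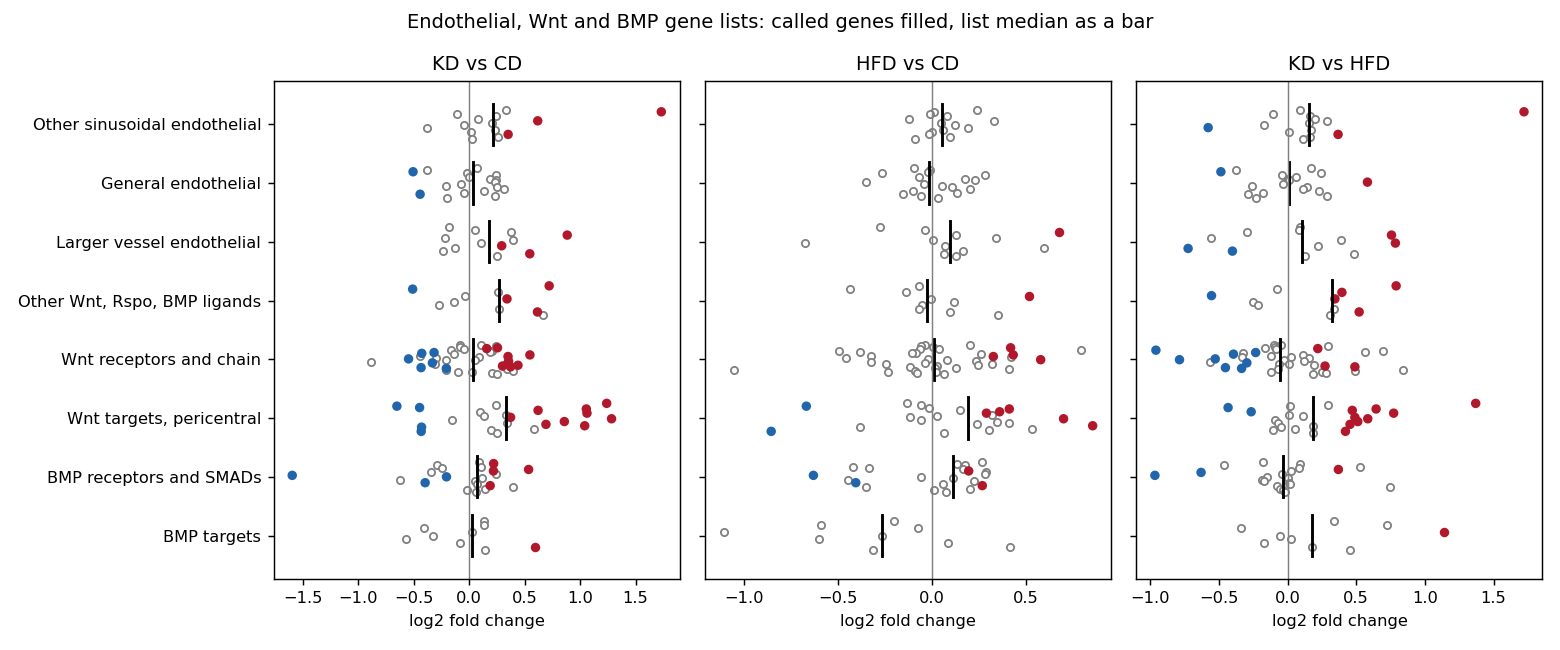
Log2 fold change (x axis) of each tested gene in 8 lists (y axis) for KD over CD, HFD over CD and KD over HFD. Filled points passed an adjusted p of 0.05 (red higher, blue lower in the first diet) and the black bar is the list median, which for pericentral Wnt targets was 0.33 in KD over CD and for BMP targets was -0.27 in HFD over CD.

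On the receiving side of the BMP signal, 21 of 24 receptors, co-receptors, SMADs and inhibitors were tested. In KD against CD livers 4 rose (Bmpr1a, Bmpr2, Acvr2a and Smad5), 3 fell (Fst, Smad1 and Hfe) and 14 did not pass. Of all genes 16.2% rose and 14.6% fell there. Bmpr1a, the type I receptor ALK3 of hepatocytes, averaged 48.2 CPM in KD livers and 33.2 CPM in CD livers (log2 fold change 0.54 ± 0.080, adjusted p = 5.69e-05, edgeR). The activin and BMP antagonist follistatin, Fst, averaged 1.03 CPM in KD livers and 3.12 CPM in CD livers (-1.596 ± 0.193, adjusted p = 6.07e-06, edgeR), and the signal transducer Smad1 fell (-0.40 ± 0.079, adjusted p = 8.45e-04). In HFD against CD livers Smad5 and Bmpr2 rose and Smad1 and Fst fell, beside 8.3% of all genes higher and 7.32% lower. In KD against HFD livers 2 fell, Fst and the BMP antagonist gene Chrd (-0.97 ± 0.20 and -0.63 ± 0.13, adjusted p = 0.00161 and 0.00232, edgeR). Bmpr1a rose there (0.37 ± 0.080, adjusted p = 0.00244, edgeR), and 18 did not pass, beside 26.1% of all genes that passed.

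Of 9 BMP target genes 1 rose in KD against CD livers, the inhibitory Smad6 (log2 fold change 0.59 ± 0.19, adjusted p = 0.0238, edgeR), and 8 did not pass, with a median of 0.03. Of all genes 30.8% passed there. None passed in HFD against CD livers, beside 15.6% of all genes, and the median was -0.27. In KD against HFD livers Id1, a direct SMAD target, rose (1.14 ± 0.37, adjusted p = 0.0374, edgeR) and 8 did not pass, beside 26.1% of all genes that passed. Hamp, the hepcidin gene, was named after its values were seen. It averaged 633 ± 50.1 CPM in KD livers, 384 ± 161 CPM in HFD livers and 578 ± 232 CPM in CD livers (SD, n = 5 each), and did not pass in any comparison (edgeR, adjusted p between 0.0952 and 0.781).

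Of 14 other endothelial signals and ligands of endothelial receptors, 1 rose (Hgf) and 2 fell (Vegfa and Vegfb) in KD against CD livers. Of all genes 16.2% rose and 14.6% fell there. Hgf, the hepatocyte growth factor gene, averaged 9.09 CPM in KD livers and 4.87 CPM in CD livers (log2 fold change 0.90 ± 0.19, adjusted p = 0.00184, edgeR). Vegfa, the hepatocyte-made ligand that maintains sinusoidal pores, averaged 110 CPM in KD livers and 161 CPM in CD livers (-0.55 ± 0.066, adjusted p = 5.48e-06, edgeR), and Vegfb had a log2 fold change of -0.81 ± 0.13 (adjusted p = 9.12e-05). Vegfb also fell in HFD against CD livers (-0.50 ± 0.13, adjusted p = 0.0113, edgeR). KD against HFD livers had 1 rise (Hgf) and 1 fall (Vegfa), beside 13.1% of all genes higher and 13% lower.

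Markers of other cells varied beside these results. The shares of all genes to set beside their counts in KD against CD livers are 16.2% higher and 14.6% lower. Stellate cell markers summed to 262 to 327 CPM in KD livers, 233 to 297 CPM in HFD livers and 237 to 321 CPM in CD livers, and 3 of 12 rose in KD against CD livers (Colec11, Rgs5 and Dcn). Kupffer cell markers summed to 154 to 234 CPM in KD livers, 122 to 204 CPM in HFD livers and 156 to 196 CPM in CD livers, and none of 11 passed against CD. All 6 erythroid markers fell in KD against CD livers, with sums of 338 to 555 CPM in KD livers, 400 to 1167 CPM in HFD livers and 735 to 1077 CPM in CD livers. Of 7 B cell markers 6 fell in KD against CD livers, with sums of 3.14 to 4.15 CPM in KD livers, 4.57 to 8.65 CPM in HFD livers and 5.83 to 16.2 CPM in CD livers. Of 9 hepatocyte markers 2 rose and 1 fell in KD against CD livers, and none of 5 cholangiocyte markers passed. No Kupffer, stellate, erythroid or B cell marker was at 0 in all libraries, and the part of these cells in the members' values was not tested.

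The members varied together from liver to liver. Over the 15 libraries, 42 of the 45 pairs of members had a positive Pearson correlation of log2 CPM, with a median of 0.54, and with the diet means removed the median was 0.47 and 43 were positive. The 2 genes of a pair share each library and its depth, so this is a description. Stab2 and Oit3 were the closest pair (r = 0.90, and 0.89 with diet means removed), followed by Oit3 and Clec4g (0.87 and 0.86), and among ligands Rspo3 and Bmp2 (0.81 and 0.83). Lyve1 and Wnt9b were the least alike (-0.07 and -0.09). Pairs of the endothelial markers (Stab1, Stab2, Lyve1, Oit3 and Clec4g) had a median of 0.76 with diet means removed. Pairs of ligands had a median of 0.49, and a ligand with a marker 0.35. The genes outside the set whose log2 CPM followed the mean of the standardised members most closely over 15 libraries were Abcc9, Ptprb, Tpbgl, Pecam1 and Timp3 (r from 0.91 to 0.92). With diet means removed they were Ehd3, Dnase1l3, Cyyr1, Col13a1 and Akap2 (r from 0.92 to 0.95).

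Wnt2, Wnt9b and Bmp2 had only 1 transcript each in the deposited data, so their share was fixed. Reads of Rspo3, Bmp6, Lyve1, Oit3 and Clec4g came almost wholly from 1 transcript each. Its diet means ran from 98.4% (Clec4g in HFD livers) upwards, and the lowest single library had 97.1% (Bmp6 in KD livers). The stabilins differed. The full-length Stab1 messenger, with 69 exons, took 54.0 ± 1.74% of the gene's reads in KD livers, 52.9 ± 3.37% in HFD livers and 48.7 ± 2.50% in CD livers (SD, n = 5 each), and KD and CD did not overlap (52.5 to 56.3% and 46.5 to 52.0%). Transcripts annotated with retained introns took most of the rest, led by 1 of 20 exons with 17.3 ± 2.35% in KD livers, 17.9 ± 4.03% in HFD livers and 18.4 ± 2.13% in CD livers. Another, of 8 exons, took 9.53 to 10.7% in HFD livers and 11.7 to 18.1% in CD livers, without overlap, and 8.45 to 14.4% in KD livers. The share of all transcripts without overlap was not computed. The full-length Stab2 messenger took 58.0 ± 4.26% of Stab2 reads in KD livers, 59.5 ± 5.11% in HFD livers and 60.5 ± 3.14% in CD livers, and a transcript annotated for nonsense-mediated decay took 40.1 ± 4.55%, 39.1 ± 5.25% and 38.4 ± 3.23% in the same diets. How reads were divided between overlapping transcripts is an estimate of the submitters' tool, and these shares were not tested.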

How the data were processed

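RNA of 15 mouse liver samples was sequenced, 5 libraries per diet, and each library was deposited with estimated counts and TPM per transcript, which per the file headers are kallisto output columns. The submitters' processing notes list Trimmomatic 0.36, kallisto 0.44, edgeR 3.28 and the build GRCm38.p6, with no role or order. Here transcripts were joined to genes with GENCODE M21 (105734 of 106332 matched), and deposited estimated counts and TPM were summed per gene, with counts rounded to whole numbers.

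All 15 libraries entered 1 edgeR 4.0.16 quasi-likelihood fit (robust, TMM factors, filterByExpr with a minimum count of 10 and minimum total of 15), with Benjamini-Hochberg adjustment over 13967 genes and a threshold of 0.05. Intervals are 95%. Replicates differed by more than counting noise (chi-square per degree of freedom 18.5 to 113 over 30 pairs), so none was merged. Diet was the only term, since no batch is given in the labels.

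The members and gene lists were chosen with earlier results of these data known. All members are named, and from each other list at most 3 genes per comparison get values, those with the smallest adjusted p among the called; Axin2, Lgr5 and Hamp, and further names given without this rule, were chosen after their values were seen. Alternatives were RLE factors, total-count scaling, DESeq2 1.42.0, no filter, a stricter filter, fits of 2 diets, an offset for transcript length, leaving out each library and an added endothelial covariate. Kallisto divides reads among overlapping transcripts by estimation, and intervals and tests do not cover that step.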

Additional observations from a re-analysis of the deposited data

Results flagged for a closer look

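Wnt2 in HFD replicate 11 had 1.06 CPM, below the other 4 HFD livers, of which the nearest had 1.604 CPM; the gap was 0.897 of the diet's range. Clec4g in CD replicate 16 had 30.0 CPM (29.995), above the other 4 CD livers, of which the nearest had 22.6 CPM, a gap of 0.772 of the range. A gap above 0.71 of the range (Dixon's test for 5 samples) marked both. Of 30 sets of 5 libraries tested 2 were marked, where chance marks about 1 in 20. Without CD replicate 16 Clec4g passed in KD against CD livers.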

How the results depend on the processing

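No paired analysis was possible because the replicate numbers of the labels do not recur between diets. Bmp2 in KD against both other diets and Wnt2 in KD against CD kept direction and call in all 18 alternatives. Members called in KD against CD were 3, with 5 under the endothelial covariate and 2 to 5 when 1 library was left out (5 without CD replicate 16). Stab2 was called beside those 3 with DESeq2, with the 2 diets alone and with the length offset. In HFD against CD 1 was called, with 0 under total-count scaling, 0 with the 2 diets alone, 0 with the length offset, 2 with DESeq2, 3 with the endothelial covariate and 0 to 2 when 1 library was left out (0 without HFD replicate 14 or CD replicate 15, 2 without HFD replicate 9 or CD replicate 16). In KD against HFD 2 were called, with 1 under total-count scaling and 3 under the endothelial covariate or without HFD replicate 14, where Rspo3 was added. Causes were not tested.

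Signs turned only for members that did not pass. KD vs CD Stab1, at -0.0022, was 0.069 with total-count scaling, 0.00890 with no filter, 0.00085 with the endothelial covariate, -0.27 with the length offset and -0.059 to 0.073 with 1 library left out. KD vs HFD Stab2, at -0.0067, was 0.0031 with RLE factors, 0.038 with total-count scaling, 0.0028 with DESeq2, 0.011 with no filter, 0.040 with the length offset, 0.019 with the endothelial covariate and -0.086 to 0.13 with 1 library left out. With 1 library left out, HFD against CD gave -0.20 to 0.036 for Wnt9b, -0.20 to 0.034 for Rspo3, -0.019 to 0.12 for Bmp2, -0.12 to 0.013 for Bmp6 and -0.017 to 0.15 for Clec4g, and KD against HFD gave -0.24 to 0.12 for Lyve1. Wnt9b did not pass the stricter filter and has no value there. Total-count scaling moved the median of all genes in KD against CD to 0.06 and made 68.5% of calls higher (52.6% with TMM), and 70.6% in KD against HFD (50.1% with TMM). Lower calls were then 1265 against 2038 in KD against CD and 960 against 1818 in KD against HFD. In HFD against CD the length offset gave 744 higher calls against 1159, and leaving out CD replicate 15 gave 681 lower calls against 1023. Low read numbers limit Wnt9b and Wnt2.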
